A study of Mus musculus with 12 samples.

Results

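The 10 genes described here encode the muscle nicotinic acetylcholine receptor (Chrna1, Chrnb1, Chrnd, Chrne and Chrng), proteins that gather the receptor at the synapse (Musk and Rapsn) and genes known to respond when a muscle loses its nerve (Ncam1, Runx1 and Gadd45a). They were taken by gene name from a table of 37748 genes, and all 10 passed the filter on low counts that left 16679 genes for testing. RNA-seq was performed on gastrocnemius muscle of 13-week-old mice from 4 groups of 3 mice. Control mice were ACTA1-MCM/+, carrying a tamoxifen-inducible Cre recombinase under a skeletal muscle actin promoter, and FLExD mice were FLExDUX4/+, carrying a DUX4 transgene that Cre inverts into the orientation for its expression; both single-transgenic groups are labelled as having had no tamoxifen. Moderate and severe model mice carried both transgenes and received tamoxifen by intraperitoneal injection, 1 dose of 5 mg/kg in the moderate model and 2 doses of 10 mg/kg on consecutive days in the severe model, and were taken at day 9. DUX4 is the transcription factor whose misexpression causes facioscapulohumeral muscular dystrophy, and in these mice it is induced in only part of the myofibers. The paper reports that mice with both transgenes already have low, mosaic DUX4 expression in muscle without tamoxifen. Such untreated mice, which the paper calls its mild model and also sequenced, are not among the 4 groups here. By these labels, tamoxifen and DUX4 induction cannot be told apart in these comparisons; the paper also lists ACTA1-MCM/+ controls given tamoxifen among its mice, and that the sequenced controls had none rests on the labels. Both models were compared with the same 3 control mice.

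Total counts per mouse ran from 23796902 in severe replicate 1 to 29136403 in control replicate 3. All severe libraries, at up to 24448547 counts, were below all other libraries, which had at least 26871186. The tissue label matched the muscle markers in all groups, as the 6 adult skeletal muscle markers (Acta1, Ckm, Myh4, Myh1, Tnnt3 and Actn3) summed to 151790 ± 24369 CPM (counts of a gene scaled to library size, ± SD, n = 3) in control, 130660 ± 16580 in FLExD, 59379 ± 5909 in moderate and 12234 ± 3611 in severe muscle. All CPM here are on library sizes adjusted by TMM, which compares libraries by genes that do not sit at the extremes. The TMM factors differed strongly between groups, from 0.706 in control replicate 1 to 1.87 in severe replicate 1. With library size alone in place of these factors, the median log2 fold change over all tested genes moved from 0.04 to 0.65 for moderate versus control and from 0.08 to 1.39 for severe versus control. Fold changes of the 10 genes are therefore relative to that median, and where a direction rests on the scaling it is stated.

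The muscle acetylcholine receptor is a pentamer of subunits encoded by separate genes, and it opens to let cations into the fiber when the motor nerve releases acetylcholine. In fetal muscle the receptor holds the gamma subunit (Chrng), which is replaced by the epsilon subunit (Chrne) as the synapse matures. In innervated adult fibers, transcription of these genes is largely held to the few nuclei beneath the nerve terminal, while electrical activity keeps it low elsewhere. After denervation this restraint is lost, receptor genes are transcribed along the fiber, and Chrng, Runx1, Ncam1 and Gadd45a rise. Myogenic regulatory factors bind E-boxes (CANNTG) in receptor gene promoters, and ETS factors bind the N-box (CCGGAA) tied to synaptic transcription.

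Upstream sequences from RefSeq (GRCm38.p6) were found for 7 of the 10 genes, and those of Chrna1, Chrng, Chrne and Musk are shown because they belong to a subunit that rose in both models, the fetal and adult subunits that moved in opposite directions, and the synaptic kinase. Each is the 250 bases before the RefSeq start site, 5′ to 3′ on the gene's strand, with E-boxes (CANNTG) and N-boxes (CCGGAA, both strands) in capitals. The windows are chr2:73580339-73580588 (minus strand), chr1:87205561-87205810 (plus strand), chr11:70619195-70619444 (minus strand) and chr4:58285712-58285961 (plus strand). GENCODE M21 annotates 22 of the 250 bases as exon for Chrne, 2 for Musk, 1 for Chrng and 0 for Chrna1, and the Chrng window lies inside a longer Chrng gene model.
Chrna1: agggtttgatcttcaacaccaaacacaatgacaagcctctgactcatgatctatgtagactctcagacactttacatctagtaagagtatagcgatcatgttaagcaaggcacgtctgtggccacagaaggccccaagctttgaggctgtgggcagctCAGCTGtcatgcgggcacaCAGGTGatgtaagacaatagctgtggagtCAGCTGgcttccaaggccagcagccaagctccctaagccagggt
Chrng: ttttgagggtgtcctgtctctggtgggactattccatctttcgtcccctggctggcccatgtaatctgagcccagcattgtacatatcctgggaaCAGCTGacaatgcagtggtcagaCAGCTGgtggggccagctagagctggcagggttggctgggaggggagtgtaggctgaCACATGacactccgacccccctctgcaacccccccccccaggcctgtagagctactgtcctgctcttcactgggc
Chrne: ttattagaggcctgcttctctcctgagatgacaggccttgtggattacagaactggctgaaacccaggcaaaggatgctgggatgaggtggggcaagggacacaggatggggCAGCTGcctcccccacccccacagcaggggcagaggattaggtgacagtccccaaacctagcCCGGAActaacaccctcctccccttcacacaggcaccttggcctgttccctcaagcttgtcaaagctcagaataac
Musk: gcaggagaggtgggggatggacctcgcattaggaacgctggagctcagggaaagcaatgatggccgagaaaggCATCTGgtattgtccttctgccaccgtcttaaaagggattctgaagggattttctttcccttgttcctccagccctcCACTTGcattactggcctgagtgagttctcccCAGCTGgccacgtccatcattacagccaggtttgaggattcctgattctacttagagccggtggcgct
The Chrna1, Chrng and Musk windows each held 3 E-boxes, and the Chrne window held 1 E-box and 1 N-box. Of all 32851 promoter windows of this length, 66.2% held at least 1 E-box, 12.2% held 3 or more, and 12% held an N-box. The form CAGCTG, a subset of the E-box found in 13% of all windows, occurred 2 times in Chrna1, 2 times in Chrng, 1 time in Chrne and 1 time in Musk. In Chrne the N-box began 76 bases before the start site, at position -76. Of the other genes with an upstream sequence, the Chrnb1 window held 3 E-boxes and 0 N-boxes, the Gadd45a window held 1 of each, and the 2 Runx1 start sites had 3 E-boxes and 1 N-box respectively. These are matches of letters only, and binding was not measured.

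The genes lie on 7 chromosomes of GRCm38 by GENCODE M21, the build to which the reads were mapped (mm10). Chrnd (ENSMUSG00000026251, chr1:87190607-87200070) and Chrng (ENSMUSG00000026253, chr1:87204657-87212694) are neighbors on the plus strand with 4586 bases between them. Chrna1 (ENSMUSG00000027107) is at chr2:73563215-73580338, Chrnb1 (ENSMUSG00000041189) at chr11:69784036-69795943, Chrne (ENSMUSG00000014609) at chr11:70614883-70619216, Musk (ENSMUSG00000057280) at chr4:58285960-58374303, Rapsn (ENSMUSG00000002104) at chr2:91035620-91045729, Ncam1 (ENSMUSG00000039542) at chr9:49502136-49798925, Runx1 (ENSMUSG00000022952) at chr16:92601466-92826149 and Gadd45a (ENSMUSG00000036390) at chr6:67035096-67037457. A gene on the opposite strand is annotated within Chrne, Ncam1 and Runx1, and 1 that runs past the end of the gene overlaps Rapsn and Gadd45a each. The counting is not stated to use strand, so reads from bases where both genes of a pair are annotated may not be told apart. The gene opposite Chrne, 4930544D05Rik, had a total of 119 counts over all 12 mice and at most 20 in any mouse, while Chrne had 122 to 200 counts in every mouse outside the severe group and 25 to 58 in severe mice. The highest count of the opposite gene in any mouse was 13 for Rapsn, 53.65 for Ncam1, 32.99 for Runx1 and 78.02 for Gadd45a, while the lowest counts of these 4 genes themselves were 403, 96.98, 40 and 234.07.

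Both models changed most of these genes. In the moderate model 8 of the 10 were called higher and 2 lower than control, a call in edgeR's quasi-likelihood test needing both an adjusted p below 0.05 and a log2 fold change of 0.5 or more in size. Of all 16679 genes tested, 24.4% were called higher and 17.0% lower in that comparison. For severe versus control the calls were 6 higher and 1 lower, beside 32.9% and 27.9% of all genes. Between the severe and moderate models 5 were called higher and 2 lower in severe, beside 17.6% and 18.8% of all genes. The median log2 fold change of the 10 genes was 1.71 in moderate and 2.16 in severe muscle, beside 0.04 and 0.08 over all genes tested, and placing Chrng at the level of 3 counts in control left both medians as they were. With library size alone, 8 of the 10 were called higher and 0 lower in moderate muscle, beside 52.5% and 4.51% of all genes, 9 and 1 in severe muscle, beside 75.4% and 6.42%, and 6 and 1 between severe and moderate, beside 57.8% and 4.93%. The counts of the 10 were the same with limma on log2(TPM + 1), where 31.5% and 4.42% of all genes were called higher and lower in moderate muscle, 64.1% and 5.92% in severe muscle, and 48.2% and 3.77% between severe and moderate. The 10 genes were chosen with results of these data known, so their counts describe them and do not set them apart from other genes.

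Chrna1, which encodes the alpha subunit that binds acetylcholine, rose in the moderate model and more in the severe model. Its level was 6.42, 8.14 and 9.72 CPM in the control mice, 10.7, 10.2 and 6.99 in FLExD, 61.6, 36.9 and 47.2 in moderate, and 127.5, 110.3 and 123.4 in severe mice. Every moderate mouse exceeded every single-transgenic mouse, and every severe mouse exceeded every moderate mouse. The log2 fold change was 2.58 ± 0.21 (SE) in moderate (adjusted p = 5.44e-07) and 3.89 ± 0.22 in severe (adjusted p = 5.41e-09) versus control, and severe exceeded moderate by 1.31 ± 0.19 (adjusted p = 0.00011).

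Chrnd, the delta subunit gene, followed the same order from a lower start. It was measured at 0.622, 1.59 and 0.997 CPM in control, 2.61, 2.23 and 1.16 in FLExD, 15.7, 9.93 and 13.1 in moderate, and 29.5, 32.8 and 33.4 in severe mice. The moderate and severe mice did not overlap with each other or with the single-transgenic mice. Its log2 fold change was 3.58 ± 0.29 in moderate (adjusted p = 5.38e-07) and 4.88 ± 0.29 in severe (adjusted p = 7.66e-09), and 1.3 ± 0.21 between severe and moderate (adjusted p = 0.00024). Chrnd was the one member with an unadjusted p under 0.05 in FLExD versus control, with an adjusted p of 1 in edgeR, and the values of those groups overlapped.

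Chrng, the fetal gamma subunit gene, was nearly absent from single-transgenic muscle and abundant in both models. The expected counts were 1, 1 and 0 in control, 1, 2 and 0 in FLExD, 304, 154 and 230 in moderate, and 1568, 1023 and 1224 in severe mice. In CPM this was 9.59, 5.31 and 7.51 in moderate and 35.3, 24.1 and 29.6 in severe mice, whereas 3 counts in control replicate 1 correspond to 0.155 CPM. Summed over 3 mice, moderate exceeded control by 230 times (688 against 2 counts, exact 95% interval 63.5 to 1906) and severe exceeded control by 910.2 times (3815 against 2 counts, interval 252 to 7519), intervals that cover counting error only. Chrng was called higher in both models by edgeR (adjusted p = 6.37e-08 and 5.49e-10). Both of the compared model groups were well above this floor, and severe exceeded moderate by a log2 fold change of 1.99 ± 0.20 (adjusted p = 6.91e-06). FLExD and control were both at or under 3 counts in every mouse, so a fold between them is not given.

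Chrne, the adult epsilon subunit gene, went the other way. It was at 8.44, 7.85 and 8.39 CPM in control, 7.72, 6.94 and 6.61 in FLExD, 5.17, 4.21 and 6.53 in moderate, and 0.564, 1.37 and 0.821 in severe mice. All 3 severe mice fell far below the others, while the moderate mice sat slightly below control. In severe muscle Chrne fell by 3.16 on the log2 scale (SE 0.24, adjusted p = 3.67e-08) versus control, and this call held in all 22 alternatives tried, with log2 fold changes from -3.57 to -1.33 in the 19 that refit them. In moderate muscle the log2 fold change was -0.63 ± 0.21 (adjusted p = 0.0205), but it was -0.03 with library size alone (adjusted p = 0.91), and the call was lost without moderate replicate 1 (adjusted p = 0.0584) and without moderate replicate 2 (adjusted p = 0.0852). Severe was below moderate by a log2 fold change of -2.53 ± 0.24 (adjusted p = 3.3e-06).

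Chrnb1, the beta subunit gene, was already well expressed in control muscle and changed least among the rising subunits. Its values were 20.98, 20.2 and 31.0 CPM in control, 18.2, 17.9 and 25.1 in FLExD, 45.3, 36.5 and 42.1 in moderate, and 31.9, 35.9 and 39.3 in severe mice. The lowest severe mouse exceeded the highest control mouse by less than 1 CPM, and moderate and severe mice overlapped. The log2 fold change versus control was 0.78 ± 0.17 in moderate (adjusted p = 0.0018) and 0.57 ± 0.17 in severe muscle (adjusted p = 0.0088). The severe call was lost without control replicate 1, control replicate 2 or severe replicate 3, when the log2 fold change was 0.46, 0.44 and 0.49. The calls in both models were also lost when a log2 fold change of at least 1 was required. They were lost as well under a pairwise Bayes factor rule that approximates the study's own. Between severe and moderate the log2 fold change was -0.21 ± 0.17 (adjusted p = 0.31), and it was positive, at 0.48, with library size alone.

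**Figure D1:**
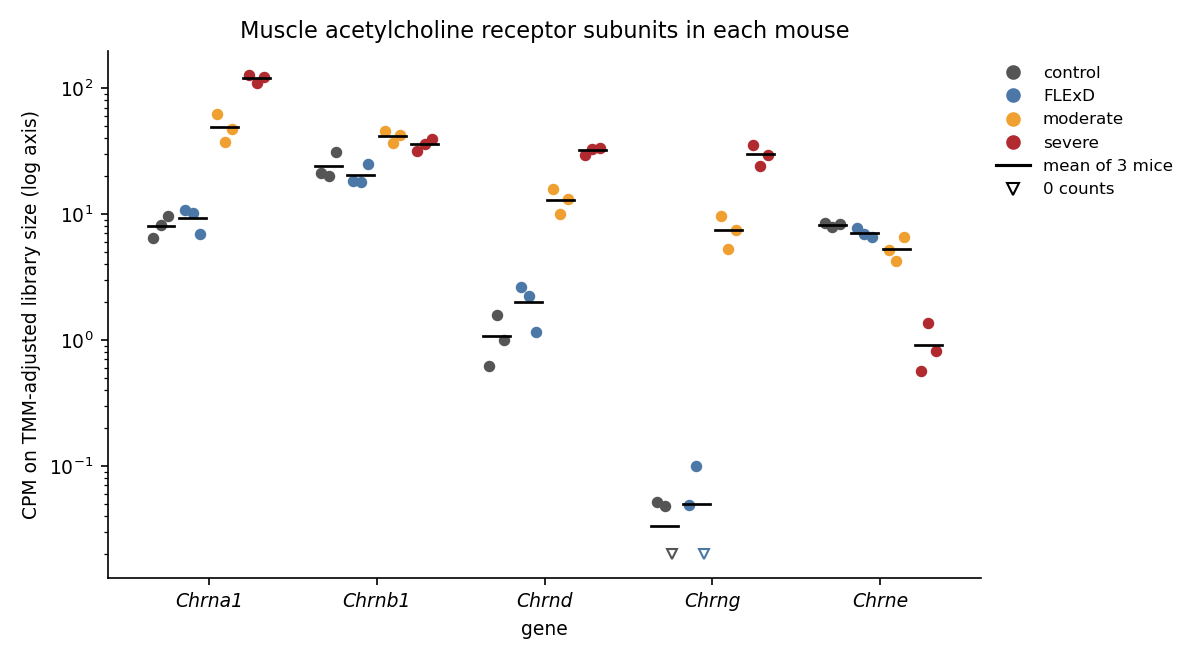
Each point is 1 mouse, in CPM on TMM-adjusted library size (log axis), for the 5 muscle receptor subunit genes in control, FLExD, moderate and severe mice; black lines are means of 3 mice and open triangles at the bottom mark mice with 0 counts. Chrna1, Chrnd and Chrng are highest in the severe mice, and Chrne is lowest there, at 0.564 to 1.37 CPM.

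The make-up of the receptor subunit mRNAs shifted accordingly. Levels of different genes were compared in TPM, a share of all transcripts in the library, which account for transcript length, and a share within a mouse does not depend on the scaling between libraries. In control muscle Chrnb1 was the most abundant of the 5 subunits at 11.5 ± 3.19 TPM, followed by Chrne at 4.97 ± 0.28 and Chrna1 at 4.70 ± 1.09, which overlapped, and then Chrnd at 0.47 ± 0.16. In severe muscle Chrna1 led at 160.1 ± 14.9 TPM, followed by Chrnb1 at 38.2 ± 2.28 and Chrng at 36.2 ± 7.60, which overlapped, then Chrnd at 25.0 ± 2.01 and Chrne at 1.41 ± 0.62. As a share of the 5, Chrna1 made up 21.6% ± 2.10 (SD, n = 3) in control, 26.5% ± 5.92 in FLExD, 46.4% ± 3.25 in moderate and 61.3% ± 1.18 in severe mice. Over the same groups the share of Chrne was 23.3% ± 3.56, 21.2% ± 1.87, 5.43% ± 1.13 and 0.547% ± 0.25. In moderate mice the level of Chrne itself overlapped with control, at 4.25, 3.78 and 5.38 TPM against 4.97, 4.69 and 5.24, while the sum of the 5 rose from 21.7 ± 4.45 to 83.2 ± 12.3 TPM, so there its lower share reflects the larger sum. Chrng made up 6.57% ± 0.67 of the 5 in moderate and 13.8% ± 1.93 in severe mice. Its share in the single-transgenic mice was 0.353% and 0.41%, but the TPM table gives values above 0 to mice with 0 counts of Chrng, so these are at the floor.

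**Figure D2:**
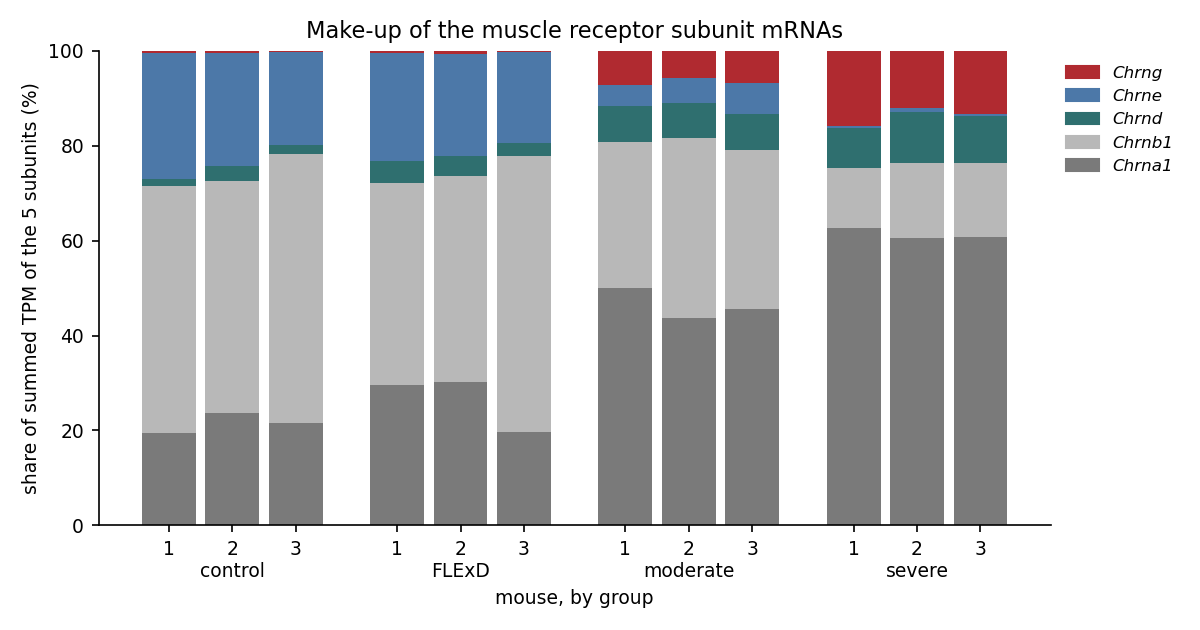
Stacked bars give the share (%) of the summed TPM of the 5 subunit genes in each of the 12 mice. Chrne takes 19.5% to 26.6% in control mice and less than 1% in severe mice, and Chrng takes 12.1% to 15.9% in severe mice.

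The balance of fetal to adult subunit was also measured as the log2 ratio of Chrng to Chrne within each mouse, from counts per kilobase of annotated exon with 0.5 count added. It was -8.64 ± 0.98 (SD, n = 3) in control, -8.18 ± 1.15 in FLExD, -0.83 ± 0.36 in moderate and 3.77 ± 0.91 in severe mice. The moderate mice were at -0.41, -0.97 and -1.10 and the severe mice at 4.64, 2.83 and 3.85, so the groups were well apart. The difference was 7.81 for moderate versus control, 12.41 for severe versus control and 4.60 for severe versus moderate, each with an exact two-sided permutation p of 0.1, the smallest that 3 against 3 mice can give. The differences from control depend on the added count, since Chrng was near 0 there, and with 3 counts added they were 6.02 and 10.53, whereas severe versus moderate was 4.51. FLExD differed from control by 0.46 (exact permutation p = 0.5), and the values overlapped. Which subunit was higher in moderate muscle depended on the length used, because in TPM Chrng made up 61.8%, 52.7% and 50.3% of the sum of Chrng and Chrne in the 3 moderate mice, above Chrne, while by annotated exon length it was below.

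Musk encodes the receptor tyrosine kinase that receives the agrin signal from the nerve and starts receptor clustering. It was at 19.6, 23.1 and 22.8 CPM in control, 22.0, 21.7 and 21.02 in FLExD, 32.0, 34.0 and 45.9 in moderate, and 27.2, 29.0 and 31.4 in severe mice. All mice of both models were above all control mice, with the moderate mice highest. The log2 fold change was 0.77 ± 0.12 in moderate (adjusted p = 0.00011), a call kept in all 19 refits but lost when a log2 fold change of at least 1 or the pairwise Bayes factor rule was required. In severe muscle it was 0.42 ± 0.12 (adjusted p = 0.0071), short of the fold threshold, although it was 1.72 and called with library size alone. Severe was below moderate by a log2 fold change of -0.35 ± 0.12 (adjusted p = 0.0235), also short of the threshold, and the sign turned to 0.35 with library size alone.

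Rapsn encodes rapsyn, the scaffold that binds the receptor on its cytoplasmic side, and it did not rise with the receptor genes under TMM scaling. Its values were 22.1, 23.6 and 24.4 CPM in control, 24.2, 20.0 and 20.6 in FLExD, 16.9, 15.7 and 14.5 in moderate, and 16.4, 15.2 and 18.4 in severe mice. Mice of both models were below all single-transgenic mice and overlapped with each other. The log2 fold change was -0.57 ± 0.10 in moderate (adjusted p = 0.00027), where it was called lower, and -0.49 ± 0.10 in severe muscle (adjusted p = 0.00054), just short of the fold threshold. With library size alone these became 0.03 in moderate and 0.81 in severe, the latter called higher, so the direction for Rapsn depends on the scaling. In TPM, Rapsn was 14.1 ± 0.97 in control, 13.2 ± 1.2 in moderate and 22.8 ± 0.53 in severe mice.

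Ncam1 encodes a neural cell adhesion molecule that spreads over the surface of denervated fibers and is also made by satellite cells and Schwann cells. It was at 5.19, 4.67 and 10.3 CPM in control, 6.62, 5.82 and 6.41 in FLExD, 30.8, 24.3 and 29.3 in moderate, and 112.9, 75.8 and 82.9 in severe mice. Control replicate 3 was higher than the other control mice, yet each moderate mouse was above it. Relative to control, the log2 fold change was 2.06 ± 0.26 in moderate (adjusted p = 3.8e-05), 3.74 ± 0.26 in severe (adjusted p = 1.19e-07) and 1.68 ± 0.23 between severe and moderate (adjusted p = 0.00012).

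Runx1 encodes a transcription factor that is induced in denervated muscle, where it limits wasting, and is also expressed in leukocytes. It was at 3.11, 1.93 and 3.70 CPM in control, 2.75, 2.77 and 3.57 in FLExD, 27.6, 24.2 and 26.7 in moderate, and 87.1, 58.0 and 52.9 in severe mice. The models did not overlap with each other or with the single-transgenic mice. Its log2 fold change was 3.17 ± 0.23 in moderate (adjusted p = 2.39e-07), 4.5 ± 0.23 in severe (adjusted p = 3.16e-09) and 1.33 ± 0.19 between severe and moderate (adjusted p = 9.7e-05).

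Gadd45a encodes a stress-induced protein that rises after denervation and promotes atrophy, and under TMM scaling it peaked in the moderate model. It was at 13.8, 14.9 and 11.7 CPM in control, 15.0, 11.6 and 13.4 in FLExD, 29.9, 24.2 and 50.2 in moderate, and 14.8, 19.1 and 20.3 in severe mice. Each moderate mouse was above all other mice, while severe and control mice overlapped. The log2 fold change was 1.37 ± 0.24 in moderate (adjusted p = 0.00043) and 0.42 ± 0.24 in severe muscle (adjusted p = 0.13), which became 1.72 and was called with library size alone. Severe was called lower than moderate at -0.95 ± 0.23 (adjusted p = 0.0045), but with library size alone the log2 fold change was -0.25 (adjusted p = 0.29).

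**Figure D3:**
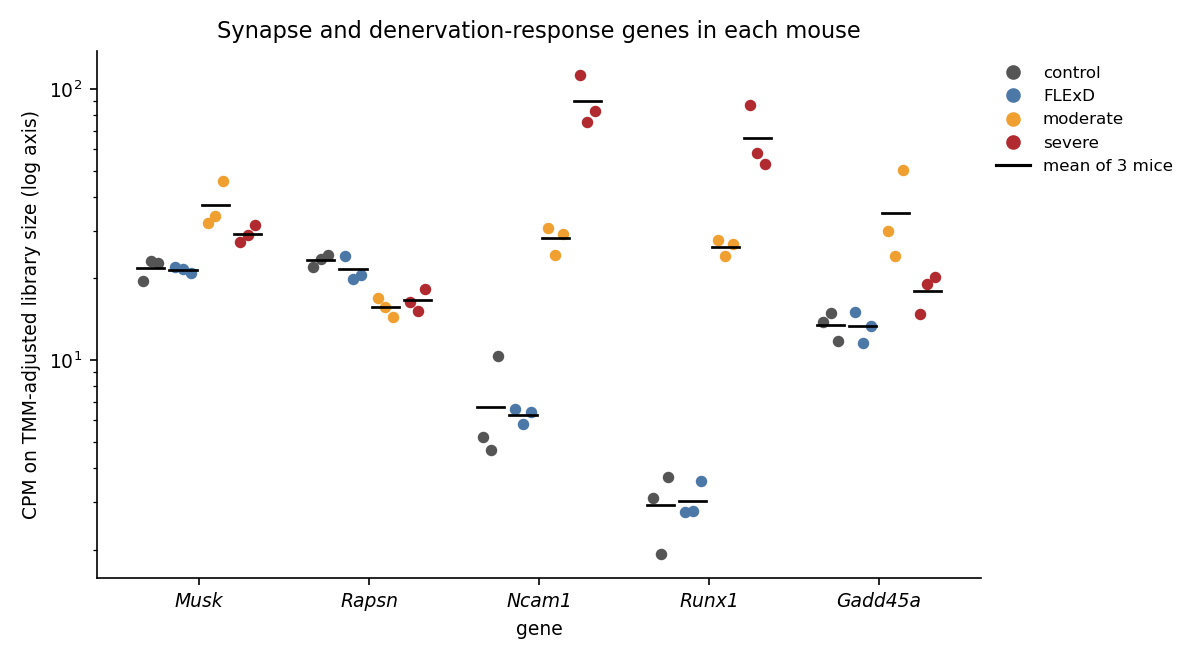
Each point is 1 mouse, in CPM on TMM-adjusted library size (log axis), for Musk, Rapsn, Ncam1, Runx1 and Gadd45a, with means of 3 mice as black lines. Ncam1 and Runx1 climb from control through moderate to severe mice. Under this scaling Musk and Gadd45a are highest in moderate mice, and Rapsn is lower in both models. With library size alone Rapsn is higher than control in severe mice, and Musk is higher in severe than in moderate mice. Gadd45a is then not called between severe and moderate mice.

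Across all 10 genes on the per-length TPM scale, the order of levels changed between groups. In control muscle the highest were Gadd45a (16.1 ± 1.52 TPM) and Rapsn (14.1 ± 0.97) on average, but Chrnb1 (11.5 ± 3.19) overlapped with both and was the highest of the 10 in control replicate 3, at 15.19 TPM. The lowest with counts above the floor was Chrnd (0.47 ± 0.16), below Runx1 (0.78 ± 0.19) with overlap. In severe muscle Chrna1 was highest, followed by Ncam1 (51.2 ± 11.0 TPM) and Gadd45a (49.2 ± 6.60), which overlapped with each other and with Chrng and Runx1, and Chrne was lowest without overlap.

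**Figure D4:**
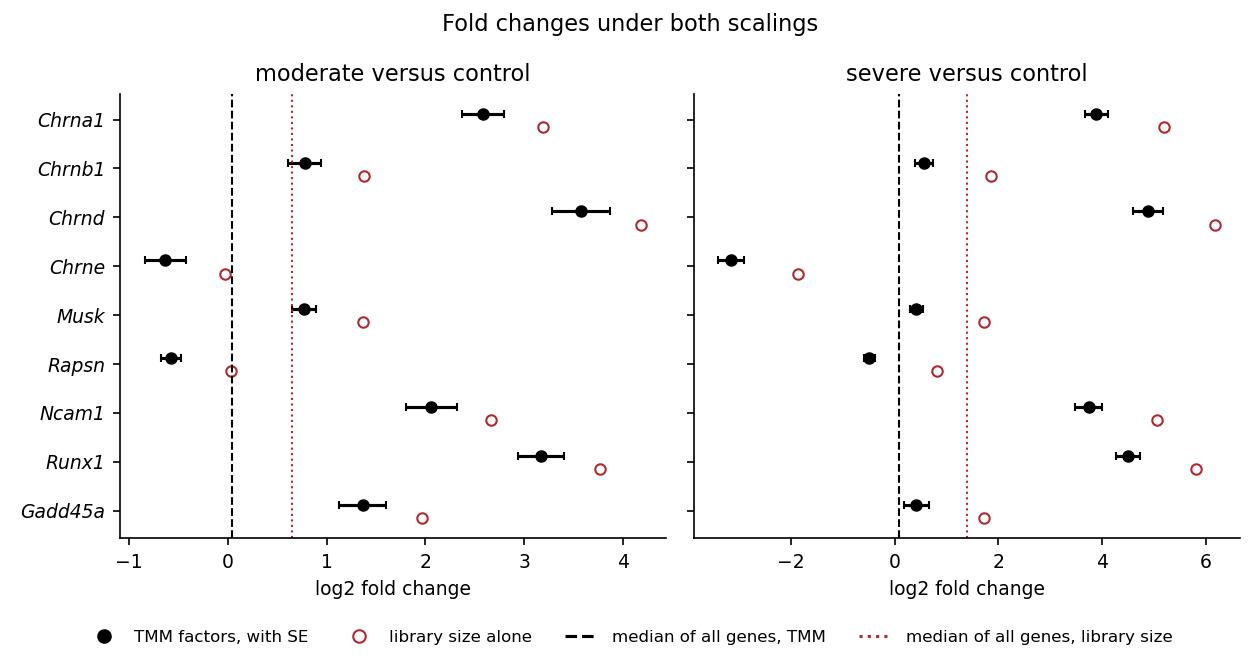
Log2 fold changes versus control for 9 of the 10 genes (Chrng, near 0 counts in control, is left out), with TMM factors (filled, bars are SE) and with library size alone (open), and the median of all tested genes under each as vertical lines. The change of scaling shifts each gene by about as much as the median, from 0.04 to 0.65 in moderate and from 0.08 to 1.39 in severe, and it turns the sign of Rapsn in both models.

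FLExD mice carry the DUX4 transgene without Cre and control mice carry Cre without DUX4, so these groups differ in both transgenes, and none of these genes differed detectably between them. Calls were absent in edgeR (0 of 10, with 1 at an unadjusted p under 0.05), DESeq2 (0) or limma on log2(TPM + 1) (0). Of all genes tested, edgeR called 0% higher and 0.00600% lower. Of the same 16679 genes, DESeq2 called 4 higher and 3 lower, and limma on log2(TPM + 1) called 1 higher and 1 lower. Over all lists described here, 0 of 73 tested genes were called by edgeR, DESeq2 or limma, with 4 at an unadjusted p under 0.05 in edgeR.

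A list of 22 other endplate genes held calls in both directions. In moderate muscle 7 were called higher and 2 lower, beside 24.4% and 17.0% of all genes, with a median log2 fold change of 0.09, which was -0.01 with Nrg1, at 0 counts in control, placed at the floor of 3 counts. In severe muscle 8 were called higher and 3 lower, beside 32.9% and 27.9% of all genes, with a median of 0.29. These counts rest on the scaling, since with library size alone 13 were called higher and 0 lower in moderate and 19 and 1 in severe muscle, beside 52.5% and 4.51%, and 75.4% and 6.42%, of all genes. With limma on log2(TPM + 1), 6 were called in moderate and 18 in severe muscle, all higher, beside 31.5% and 64.1% of all genes called higher. Ache, which encodes the enzyme that breaks down acetylcholine in the cleft, was at 17.8 ± 2.67 CPM in control, 219.7 ± 10.3 in moderate and 83.2 ± 28.1 in severe muscle. Its log2 fold change was 3.62 ± 0.22 in moderate (adjusted p = 6.3e-08) and 2.22 ± 0.21 in severe (adjusted p = 8.8e-07), and severe was below moderate by a log2 fold change of -1.40 ± 0.20 (adjusted p = 0.00011). The syntrophin gene Sntb1, whose product belongs to the dystrophin complex, was at 10.3 ± 1.28 CPM in control, 60.2 ± 6.75 in moderate and 54.0 ± 8.68 in severe muscle (log2 fold change 2.54 ± 0.15 and 2.39 ± 0.14). Etv5, an ETS factor involved in synaptic transcription, had a log2 fold change of 1.71 ± 0.14 in moderate and 1.60 ± 0.14 in severe muscle. Dtna, which encodes alpha-dystrobrevin, a stabilizer of the mature synapse, was at 144.9 ± 8.98 CPM in control, 74.0 ± 12.2 in moderate and 38.9 ± 7.96 in severe muscle (log2 fold change -0.97 ± 0.14 and -1.90 ± 0.15). With library size alone the moderate value was -0.37 and not called. Lrp4 and Dok7, the agrin co-receptor and the cytoplasmic activator of MuSK, were at 17.5 ± 1.57, 12.2 ± 3.05 and 13.2 ± 1.24 CPM for Lrp4 and 13.1 ± 1.25, 9.78 ± 1.5 and 12.7 ± 1.18 for Dok7 in control, moderate and severe muscle. Both were below all control mice in moderate muscle. Lrp4 was called lower there (log2 fold change -0.52 ± 0.15, adjusted p = 0.0077), a call lost without control replicate 2, moderate replicate 1 or moderate replicate 3 (-0.48, -0.41 and -0.46), and it was 0.08 with library size alone. For Dok7 the moderate log2 fold change was -0.42 ± 0.12 (adjusted p = 0.0088), short of the fold threshold, and 0.18 with library size alone. In severe muscle neither was called (-0.40 ± 0.14 and -0.05 ± 0.12), but with library size alone both were called higher, at 0.90 for Lrp4 and 1.26 for Dok7.

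Of 10 other genes known to rise after denervation, 9 were tested; 4 were called higher and 1 lower in moderate muscle, and 4 higher and 3 lower in severe muscle, with medians of 0.18 and 0.29. Over all genes tested, 24.4% and 17.0% were called higher and lower in moderate muscle and 32.9% and 27.9% in severe muscle. The counts of this list with library size alone were 5 higher and 0 lower in moderate and 6 and 1 in severe muscle, beside 52.5% and 4.51%, and 75.4% and 6.42%, of all genes. Myog, the myogenic factor that activates receptor genes after denervation, was at 2.69, 3.18 and 3.84 CPM in control, 32.9, 21.9 and 25.6 in moderate, and 92.5, 70.4 and 81.2 in severe mice. Its log2 fold change was 3.04 ± 0.20 in moderate (adjusted p = 6.8e-08) and 4.65 ± 0.20 in severe (adjusted p = 4.7e-10). Cdkn1a, a cell cycle inhibitor, was also called higher in both models (2.60 ± 0.25 and 3.12 ± 0.25). Hdac4, a histone deacetylase that links denervation to receptor genes, was called lower in both (-0.72 ± 0.11 and -1.63 ± 0.12), although with library size alone these were -0.11 and -0.32 and not called. Of the ubiquitin ligase genes on this list, those best known from muscle atrophy were called lower in severe muscle, Fbxo32 at -2.59 ± 0.37 (adjusted p = 0.0001) and Trim63 at -1.68 ± 0.22 (adjusted p = 1.9e-05), the latter -0.39 and not called with library size alone. Fbxo30, another ubiquitin ligase gene of atrophy, was not called in severe muscle, at 18.1 ± 2.44 CPM in control and 22.2 ± 1.74 in severe mice (log2 fold change 0.29 ± 0.11, adjusted p = 0.0315), but was called higher with library size alone, at 1.60. Of 3 genes known to fall after denervation, limma on log2(TPM + 1) called 1 in moderate and 2 in severe muscle, both directions counted. Over all genes, limma called 31.5% higher and 4.42% lower in moderate, and 64.1% and 5.92% in severe muscle. With edgeR, 2 of the 3 were called lower in each model, with medians of -1.40 and -3.94. These were Dach2, a repressor of Myog, from 3.60 ± 2.13 CPM in control to 0.492 ± 0.35 in moderate and 0.0749 ± 0.068 in severe muscle, where the counts were 6.74, 1.03 and 2.01 and so below the floor of 3 in 2 of the 3 mice, and the chloride channel gene Clcn1, from 132 ± 13.6 to 50.2 ± 9.07 and 8.65 ± 3.73. The remaining gene of this list, Hdac9, was not called by edgeR in either model (log2 fold change -0.34 in moderate and -0.22 in severe muscle). In TPM it went the other way in severe muscle, at 3.79, 3.10 and 3.35 in control and 6.99, 7.05 and 6.12 in severe mice. Its direction in severe muscle therefore depended on the scaling.

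Markers of other cell types moved along with these genes, and in bulk muscle fewer cells of a type and less RNA per cell cannot be told apart. The counts of markers called with TMM factors, here and in the next paragraph, stand beside 24.4% of all genes called higher and 17.0% lower in moderate muscle, and 32.9% and 27.9% in severe muscle. Of 6 leukocyte markers, 5 were tested and 5 called higher in both models. They summed to 41.1, 38.3 and 49.1 CPM in control, 36.5, 39.6 and 42.4 in FLExD, 248.9, 192.5 and 206.1 in moderate, and 501, 432 and 459 in severe mice. Per length the most abundant was Csf1r in control and FLExD mice (5.50 and 5.13 TPM) and Cd68 in moderate and severe mice (38.2 and 136.1 TPM), none was at 0 in a whole group, and the T cell marker Cd3e was too low to test. Of 5 satellite cell and myoblast markers, 3 were called higher in moderate and 4 in severe muscle, with sums of 21.1, 21.8 and 24.5 CPM in control, 22.4, 21.1 and 21.5 in FLExD, 81.0, 58.9 and 75.9 in moderate, and 126, 120 and 124 in severe mice. Cdh15 was the most abundant of these in TPM in each group. The embryonic and perinatal myosin genes Myh3 and Myh8, markers of regenerating fibers, were called higher in both models, and their sum was 16.5, 18.8 and 11.9 CPM in control, 20.7, 18.9 and 17.9 in FLExD, 540, 297 and 379 in moderate, and 1615, 1136 and 1608 in severe mice. Of the 6 adult muscle markers 5 were called lower in moderate and 6 in severe muscle. By limma on log2(TPM + 1), 4 of them were called in moderate and 6 in severe muscle. Over all genes, limma called 31.5% higher and 4.42% lower in moderate, and 64.1% and 5.92% in severe muscle. Immature fibers and myoblasts express Chrng, Chrna1, Chrnd and Ncam1, and leukocytes express Runx1; the part of these cells in the measured changes was not tested.

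Of 7 Schwann cell markers, 1 was called lower in moderate muscle, and 1 was called higher and 3 lower in severe muscle. The calls were 2 higher and 0 lower in moderate and 1 of each in severe muscle with library size alone, beside 52.5% and 4.51%, and 75.4% and 6.42%, of all genes. By limma on log2(TPM + 1) they were 0 in moderate and 1 higher in severe muscle, beside 31.5% and 4.42%, and 64.1% and 5.92%. The list summed to 16.6, 31.7 and 31.2 CPM in control, 21.3, 67.2 and 17.9 in FLExD, 33.0, 60.5 and 20.5 in moderate, and 9.47, 15.3 and 11.2 in severe mice. Mbp was the most abundant in TPM in moderate and severe mice, and none was at 0 in a whole group. All severe mice were below all other mice on this sum, while the remaining groups overlapped. With library size alone this order was lost, as the severe mice were at 17.7, 26.6 and 18.9 CPM and the control mice at 11.7, 22.7 and 22.6. The part of Schwann cells or nerve in the amount of Ncam1 was not tested. The sum over the sex markers, nearly all of it Xist, ranged from 129 CPM in FLExD replicate 1 to 379 in severe replicate 1, and the Y-linked genes Ddx3y and Eif2s3y had 1.05 and 1.79 counts in total over the 12 mice (Uty 69.2 and Kdm5d 34.3), so Xist was detected in every group and these Y-linked genes were near 0.

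**Figure D5:**
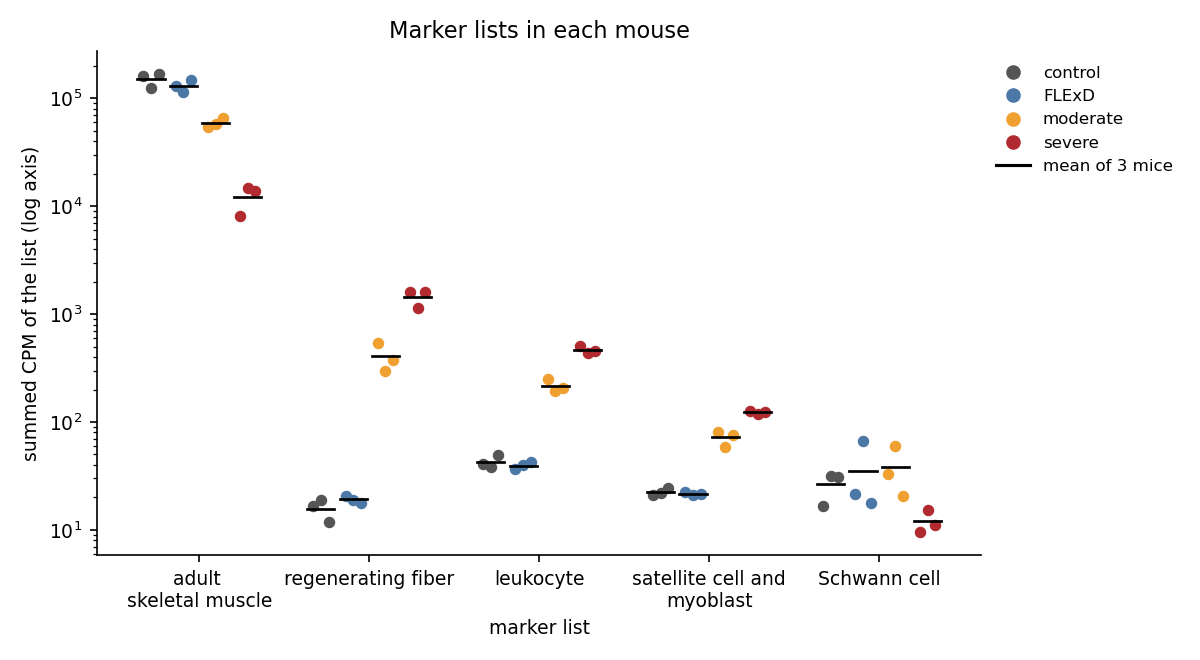
Each point is 1 mouse, as the summed CPM of a marker list on TMM-adjusted library size (log axis), with means of 3 mice as black lines. From control to severe mice, adult muscle markers drop from 151790 to 12234 CPM on average, regenerating fiber, leukocyte and satellite cell markers climb, and Schwann cell markers are lowest in severe mice under this scaling, though not with library size alone, where severe mice overlap the other groups.

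The genes whose log2 CPM followed Chrng most closely over the 12 mice were Me2, Lilrb3, Pkhd1, Baz1a and Ctss, with Pearson's r from 0.997 to 0.998 among 13323 genes with a mean of at least 1 CPM. Because the 12 mice fall into separate groups, many genes share this pattern, and 1451 of them had r above 0.95 with Chrng. Those closest to Chrne were Psmd12, Eef1a2, Wnk2, Gm12224 and Ensa, with r from 0.987 to 0.989, and 600 genes were above 0.95. These correlations are descriptions and were not tested.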

How the data were processed

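Poly(A) RNA from gastrocnemius muscle of 12 mice, 3 per group, was sequenced as 50-base single reads, 1 library per mouse. The authors mapped reads to mm10 with a merged annotation (Ensembl 71 among its sources), using RSEM 1.2.4 with Bowtie, and TopHat2 2.0.8b for the remainder, as the paper and the submitters' processing notes state. The deposited expected counts are not normalized, and 31.8% to 36.2% of them per library are not whole numbers. They were rounded to whole numbers for the fits on counts only, and the counts and CPM printed here are from unrounded values. The deposited TPM values sum to 999994 to 1000004 per library, so no factor between libraries is in them.

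Counts were filtered with filterByExpr, scaled by TMM and fitted over all 12 mice with edgeR 4.0.16 (robust quasi-likelihood F-test, R 4.3.3), with Benjamini-Hochberg adjustment over 16679 genes; SE is the fold change divided by the square root of F. The code was tested on simulated counts. Total counts ran from 23796902 to 29136403 per mouse. Alternatives were DESeq2 1.42.0, scaling by median-of-ratios factors or by library size alone, limma 3.58.1 on TPM with 1 or 0.1 added, no filter, only the 2 groups compared, other fold thresholds, a Bayes factor of at least 10 in all 9 pairs of mice, approximating the study's rule, and each mouse left out. Named genes were the 10 members, genes of the listed sets, and the 5 genes most correlated with Chrng and with Chrne. The members and lists were chosen with earlier results of these data known. Annotation was GENCODE M21, in which 35982 of 37748 identifiers were found. Libraries of a group differed by more than sampling noise, so each counted as 1 replicate. Intervals and the floor of 3 counts cover counting error only.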

Additional observations from a re-analysis of the deposited data

How the results depend on the processing

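Of the log2 fold changes of named genes under alternative settings, in each model against control and between the models, 1353 kept their direction and their side of the threshold, 45 were weaker, 48 stronger and 34 had the opposite sign. For FLExD versus control, where no fold change of a gene is given in the text, 453 kept their sign and 39 did not, with no call in any. Chrna1, Chrnd, Chrng, Ncam1 and Runx1 kept their call in all 22 alternatives in every comparison that includes a model group. For moderate versus control, Rapsn was 0.033 and Lrp4 0.082 with library size alone. For severe versus control, library size alone, limma on log2(TPM + 1) and limma on log2(TPM + 0.1) gave 0.81, 0.66 and 0.69 for Rapsn, 0.90, 0.59 and 0.76 for Lrp4, and 1.26, 0.77 and 0.86 for Dok7. For moderate versus control they gave 0.18, 0.046 and 0.053 for Dok7 and 0.25, 0.109 and 0.11 for Trim63, called in none. For severe versus moderate the same settings gave 0.53, 0.55 and 0.56 for Sntb1 and 0.58, 0.52 and 0.55 for Etv5, and, with no call, 0.48, 0.43 and 0.44 for Chrnb1 and 0.35, 0.42 and 0.44 for Musk. Dok7 in severe versus control was 0.052 with no filter on low counts and -0.117 to 0.023 when leaving out each mouse. Leaving out each mouse also gave -0.25 to 0.020 for Etv5 and -0.14 to 0.44 for Chrna9 between severe and moderate. The number of the 10 genes called lower in moderate muscle was 0 with library size alone, limma on log2(TPM + 1) or log2(TPM + 0.1), a log2 fold change of at least 1 or the pairwise Bayes factor rule, and 1 to 2 when leaving out each mouse. In severe muscle it was 2 with median-of-ratios factors, DESeq2, only the 2 groups compared or no fold threshold, and 1 to 2 when leaving out each mouse. For severe versus moderate it was 3 with no fold threshold, which adds Musk, and 1 with library size alone, limma on log2(TPM + 1) or log2(TPM + 0.1), a log2 fold change of at least 1 or the pairwise Bayes factor rule, and the calls over all genes moved from 2943 higher and 3139 lower to 9648 and 823 with library size alone. The cause was not tested. Chrng had no value for FLExD versus control with only those 2 groups, being under the filter. No paired analysis was possible because the labels share no replicate numbers. Depth limits Chrng in single-transgenic muscle, where every mouse had at most 2 counts, and groups of 3 mice limit every exact permutation p to 0.1 or more.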

Other observations

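Neuronal acetylcholine receptor subunit genes were scarce in all groups, and 3 of 11 passed the filter on low counts. Of these, 2 were called higher and 1 lower in both models by edgeR, beside 24.4% and 17.0% of all genes in moderate and 32.9% and 27.9% in severe muscle, while limma on log2(TPM + 1) called 2 in each model, 1 in each direction, beside 31.5% and 4.42%, and 64.1% and 5.92%, of all genes. Chrna9, best known from hair cells of the inner ear, was at 0.155, 0.385 and 0.806 CPM in control, 2.97, 1.07 and 2.74 in moderate, and 2.01, 2.71 and 3.12 in severe mice, with every model mouse above every control mouse (log2 fold change 2.30 ± 0.53 and 2.51 ± 0.52). Chrna10, its partner subunit there, fell from 2.13, 3.72 and 2.43 CPM in control to 0.247, 0.733 and 0.514 in moderate and 0.0676, 0.118 and 0.107 in severe mice, without overlap, the severe values resting on 3 to 4.99 counts (log2 fold change -2.46 ± 0.32 and -4.81 ± 0.39).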
